A study of Homo sapiens with 10 samples.

Results

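The G1/S transition and DNA replication machinery was followed through 38 named genes in a human kidney-derived line that expressed MN1, BEND2 or fusions of MN1. The 38 genes were taken by symbol from the 58216 genes of the deposited count table, and each symbol matched a gene. They comprise the replicative helicase MCM2 to MCM7 with MCM10, the licensing factors CDC6 and CDT1, CDC45 and GINS1 to GINS4, the sliding clamp PCNA and its loader RFC1 to RFC5, polymerase and primase genes (POLA1, POLA2, PRIM1, PRIM2, POLE, POLE2, POLD1), nucleotide-supply genes (RRM1, RRM2, TYMS), the lagging-strand and methylation-maintenance genes FEN1, LIG1, DNMT1 and UHRF1, and the regulators CCNE1, CCNE2, E2F1 and SLBP. All 38 passed the filter on low counts, and their counts per library ran from 133 (POLA2) to 17526 (MCM7).

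The host was TREx293, a HEK293 derivative that carries the tetracycline repressor. Each of the 5 groups had 2 libraries: CTRL, whose genotype is given as WT, and lines labelled as knockin of MN1, BEND2, MN1-BEND2 or MN1-CXXC5. The construct lines carried HA-tagged cDNA in the pcDNA5/FRT/TO vector, a doxycycline-regulated expression vector, were made by co-transfection with the recombinase plasmid pOG44, and were selected in blasticidin and hygromycin before doxycycline induction. The labels do not say whether CTRL carried an empty vector or received doxycycline, whether a line was a clone or a pool, how long induction lasted, or whether same-group libraries stem from different cultures. The p-values therefore measure only the spread between these libraries, which may be technical. MN1 acts as a transcriptional coactivator, BEND2 carries DNA-binding BEN domains, CXXC5 has a zinc finger of the CXXC type, and both fusions are known from astroblastoma, a brain tumour. No group expressed a CXXC5 construct without MN1. The series was designed to examine how MN1-BEND2 acts on transcription across the genome.

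In late mitosis and G1, CDC6 and CDT1 help load the MCM2 to MCM7 helicase onto origins, and cyclin E with other kinases then brings in CDC45 and GINS so that the helicase fires. Polymerase alpha with primase starts each strand, RFC loads PCNA, and polymerases epsilon and delta extend the leading and the lagging strand. Many of these genes are targets of E2F transcription factors, which are held back by RB1 until cyclin-dependent kinases inactivate it, so their RNA peaks around the entry into S phase. In a bulk culture a different share of cells in S phase and a different RNA level per cell cannot be told apart.

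Libraries held 15914424 to 26799613 counts, and levels are given as CPM, counts scaled to a common total of 1e+06 per library, with TMM factors. The 38 genes together made up 0.595 to 0.649% of all counts. MN1 and BEND2 went with the labels in these lines. MN1 stood at 3.91 and 3.81 CPM in CTRL and at 328 and 325 CPM in MN1 cells. BEND2 stood at 0 and 0.171 CPM in CTRL and at 394 and 407 CPM in MN1-BEND2 cells. MN1, BEND2 and CXXC5 summed to 17.5 and 17.4 CPM in CTRL, 184 and 190 CPM in MN1-CXXC5 and 707 and 720 CPM in MN1-BEND2 cells, so the fusion lines differed in this level too. All 3 were called higher than in CTRL in both fusion lines, including the 1 outside each fusion. For BEND2 in MN1-CXXC5 cells this call starts from 0 and 0.171 CPM in CTRL, where 3 counts equal 0.156 and 0.128 CPM. It therefore starts from a few counts at most and is not read further. The levels of the 3 genes add endogenous and construct reads. The HEK293-typical markers VIM, KRT8, KRT18, NEFM, NEFL, PAX2 and LIN28B summed to 933 to 1531 CPM. Markers of blood, endothelium and fibroblasts summed to at most 2.06, 1.25 and 11.4 CPM. Salivary and squamous markers stood apart in 2 libraries: KRT4, KRT13, ZG16B, MUC7, STATH and AMY1A summed to 81.3 CPM in CTRL replicate 1 and 73.5 CPM in MN1 replicate 1, against 0.244 to 2.03 CPM in the other 8, with AMY1A at 0 in all 10. Counts of members without each of these 2 libraries in turn are given beside the main counts. No fit of MN1 against CTRL left out both.

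Promoter windows show what many of these genes share beyond their function. RefSeq windows (GRCh38.p14) from 250 bases before to 50 bases after the annotated start were matched for 34 of the 38 genes. The 4 E2F-type words TTTCCCGC, TTTCGCGC, TTTGCCGC and TTTGGCGC, searched on both strands, were present in 20 of the 34 (58.8%), against 3.33% of all 27305 windows and 5.19% of the 11500 windows of tested genes. These words can overlap one another on opposite strands, as in the MCM2 and MCM6 windows, where an overlapping pair counts once towards a window. The CCAAT box (CCAAT) was found in 52.9% of the 34 windows against 36.4% of those of tested genes, the E-box (CACGTG) in 8.82% against 9.76%, and the cell cycle element TTTGAA in 2.94% against 9.75%. A match is a description of letters in a window, and the lack of one says only that these letters are not in it. The windows of 5 genes with large differences are printed 5′ to 3′ on the strand of the gene, with E2F-type words in capitals. RRM2 is shown because it rose and TYMS and UHRF1 because they fell in MN1-BEND2 cells, and CDT1 and E2F1 because they were lowest in MN1-CXXC5 cells. The windows are chr2:10122489-10122788 (plus strand) for RRM2, chr18:657403-657702 (plus strand) for TYMS, chr19:4909251-4909550 (plus strand) for UHRF1, chr16:88803539-88803838 (plus strand) for CDT1 and chr20:33686336-33686635 (minus strand) for E2F1.
RRM2: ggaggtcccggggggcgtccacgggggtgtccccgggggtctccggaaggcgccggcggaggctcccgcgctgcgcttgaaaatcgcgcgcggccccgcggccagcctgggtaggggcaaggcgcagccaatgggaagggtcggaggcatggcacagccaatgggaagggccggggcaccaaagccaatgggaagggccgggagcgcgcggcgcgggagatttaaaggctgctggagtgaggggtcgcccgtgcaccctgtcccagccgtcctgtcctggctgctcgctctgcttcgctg
TYMS: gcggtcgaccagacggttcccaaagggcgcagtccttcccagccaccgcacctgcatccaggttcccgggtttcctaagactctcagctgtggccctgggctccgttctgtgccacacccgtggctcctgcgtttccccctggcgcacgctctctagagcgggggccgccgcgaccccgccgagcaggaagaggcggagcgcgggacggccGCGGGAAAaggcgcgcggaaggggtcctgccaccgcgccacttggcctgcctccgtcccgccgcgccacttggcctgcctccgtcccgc
UHRF1: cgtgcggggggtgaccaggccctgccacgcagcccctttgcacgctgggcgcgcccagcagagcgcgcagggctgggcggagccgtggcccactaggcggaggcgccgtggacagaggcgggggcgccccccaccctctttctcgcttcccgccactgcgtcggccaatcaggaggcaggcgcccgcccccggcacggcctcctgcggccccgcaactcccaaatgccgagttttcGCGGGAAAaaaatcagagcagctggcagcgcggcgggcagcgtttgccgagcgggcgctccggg
CDT1: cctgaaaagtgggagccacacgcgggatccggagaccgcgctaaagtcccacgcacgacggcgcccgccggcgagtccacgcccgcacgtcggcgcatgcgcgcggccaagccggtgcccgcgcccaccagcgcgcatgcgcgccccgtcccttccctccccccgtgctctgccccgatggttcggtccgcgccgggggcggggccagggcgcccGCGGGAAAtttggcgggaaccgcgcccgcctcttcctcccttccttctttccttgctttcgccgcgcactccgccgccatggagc
E2F1: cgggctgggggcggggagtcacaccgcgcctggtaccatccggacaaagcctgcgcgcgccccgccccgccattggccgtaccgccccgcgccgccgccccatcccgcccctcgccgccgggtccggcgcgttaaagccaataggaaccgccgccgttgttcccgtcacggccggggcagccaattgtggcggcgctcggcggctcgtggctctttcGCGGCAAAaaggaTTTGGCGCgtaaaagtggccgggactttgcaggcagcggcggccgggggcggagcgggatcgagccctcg
The RRM2 window held none of the 4 words and 3 CCAAT boxes. TYMS, UHRF1 and CDT1 each held 1 word, beginning 39, 14 and 35 bases before the start, and E2F1 held 2, beginning 33 and 20 bases before it. Genes that rose and genes that fell were found on both sides of this split: in MN1-BEND2 cells 2 of the 20 genes with a word rose and 10 fell (median log2 fold change -0.09), and of the 14 without a word 4 rose and 6 fell (median 0.02).

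Against CTRL the replication genes did not move as a block in either fusion line. In MN1-BEND2 cells 8 of the 38 rose and 17 fell (25 called, 65.8%), while 51.9% of all 18127 tested genes were called, 26.7% as higher and 25.2% as lower. The median log2 fold change of the 38 was -0.01 and of all genes 0.01, with a span from -0.85 (RFC4) to 1.20 (RRM2). The 2 libraries of MN1-BEND2 and the 2 of CTRL did not overlap for 33 of the 38 (74.8% of all genes). In MN1-CXXC5 cells 11 rose and 13 fell, against 44.3% of all genes called (19.2% higher, 25.1% lower), with a median of 0.00 and a span from -0.77 (CDT1) to 0.73 (RRM2), and the groups did not overlap for 33 (71.4% of all genes). A call means an adjusted p under 0.05 in the edgeR quasi-likelihood test with Benjamini-Hochberg adjustment over all tested genes.

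In MN1 cells the called members were mostly higher. There 16 rose and 6 fell, against 43.0% of all genes called (21.6% higher, 21.4% lower), and the median was 0.10 against 0.00 for all genes. The groups did not overlap for 30 members (69.8% of all genes). In BEND2 cells 6 rose and 3 fell, against 14.2% of all genes called (6.71% higher, 7.46% lower), with a median of 0.04, and the groups did not overlap for 27 members (56.3% of all genes). No member reached an absolute log2 fold change of 0.5 in either line, while 6.17% of all genes rose and 6.88% fell by that much in MN1 cells, and 0.783% and 0.502% in BEND2 cells. In the fusion lines few members passed that size: 1 rose and 4 fell in MN1-BEND2 cells (all genes 12.3% and 8.85%), and 1 rose and 3 fell in MN1-CXXC5 cells (5.06% and 11.4%).

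All 4 comparisons share the CTRL libraries. Agreement between them is therefore not read as a result. Of the 152 tests of a member against CTRL, 80 were called, and 47 of these calls held in each alternative fit. Without CTRL replicate 1, 6 rose and 16 fell in MN1-BEND2 cells, 9 rose and 12 fell with MN1-CXXC5, 15 and 6 with MN1, and 2 and 2 with BEND2. Without MN1 replicate 1, 13 rose and 5 fell in MN1 cells. Leaving out BEND2 replicate 1 or 2 also left 2 and 2 in BEND2 cells, and leaving out CTRL replicate 2 left 3 and 1. With offsets for GC content and transcript length, the MN1-BEND2 split became 5 higher and 22 lower. Over all genes the offsets moved it from 4841 higher and 4575 lower to 3737 and 4745. With DESeq2 the member split was 2 higher and 15 lower in MN1-BEND2 cells and 2 and 1 in BEND2 cells. All genes then stood at 3136 higher and 3291 lower in MN1-BEND2 and 346 and 515 in BEND2 cells.

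**Figure D1:**
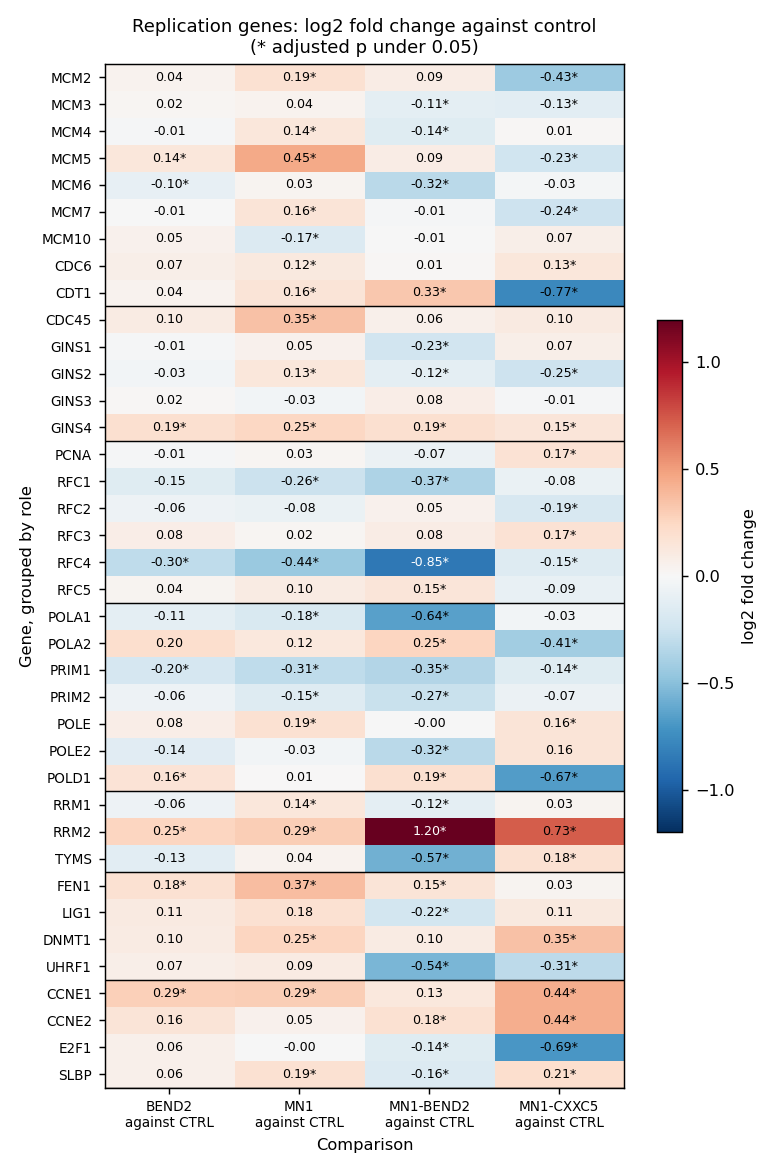
Log2 fold change of each of the 38 genes (rows, grouped by role) in the 4 construct lines against CTRL (columns), with the value printed in each cell and a star for an adjusted p under 0.05. RRM2 in MN1-BEND2 cells (1.20) is the highest value and RFC4 in the same cells (-0.85) the lowest.

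Most of the 9 licensing and helicase genes were higher in MN1 cells than in MN1-CXXC5 cells: compared directly, 6 were lower and 1 higher in MN1-CXXC5 cells, beside 25.5% and 23.3% of all genes. In MN1 cells 6 of 9 rose: MCM5 by 0.45, MCM2 by 0.19, MCM7 and CDT1 by 0.16 each, MCM4 by 0.14 and CDC6 by 0.12 on the log2 scale, while MCM10, which links the helicase to polymerase alpha, fell by 0.17. In MN1-CXXC5 cells 5 of 9 fell: CDT1 by 0.77, MCM2 by 0.43, MCM7 by 0.24, MCM5 by 0.23 and MCM3 by 0.13, and CDC6 rose by 0.13. In MN1-BEND2 cells MCM6, MCM4 and MCM3 fell by 0.32, 0.14 and 0.11, and CDT1 rose by 0.33. In BEND2 cells MCM5 rose by 0.14 and MCM6 fell by 0.10, and the other 7 were not called. Of these calls, those of CDC6 and CDT1 in MN1 cells and of MCM5 and MCM6 in BEND2 cells were lost with DESeq2. Leaving out single libraries also ended that of MCM2 in MN1 cells (without CTRL replicate 2 or MN1 replicate 1). It ended the MCM3 call in MN1-BEND2 cells (without CTRL replicate 2 or MN1-BEND2 replicate 1) and in MN1-CXXC5 cells (without MN1-CXXC5 replicate 1). The MCM3 call in MN1-CXXC5 cells was also lost in a fit of only the 2 groups compared.

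CDT1 (ENSG00000167513, chr16:88803213-88809258, plus strand), which delivers the helicase to origins and is degraded once S phase starts, had the widest span between the fusion lines. Its levels were 90.2 and 83.6 CPM in CTRL, 99.7 and 93.8 CPM in MN1, 88.3 and 90.2 CPM in BEND2, 112 and 106 CPM in MN1-BEND2 and 52.1 and 49.9 CPM in MN1-CXXC5 cells. The MN1-CXXC5 libraries were the 2 lowest and the MN1-BEND2 libraries the 2 highest of all 10, with no overlap with CTRL in either case. The difference from CTRL was -0.77 on the log2 scale (SE 0.052, adjusted p = 4.17e-07) in MN1-CXXC5 cells. With offsets for GC content and length it was -0.23 there (adjusted p = 0.00494) and -0.02 in MN1-BEND2 cells (adjusted p = 0.772), where the call was lost. CDT1 lies at the 96.7th percentile of GC content among tested genes, and the part of GC content in these differences was not tested beyond this setting. The same setting ended the MN1-CXXC5 calls of MCM3 (-0.05), MCM5 (-0.06), MCM7 (-0.00) and CDC6 (0.07), and took MCM2 to -0.18.

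The 6 subunits of the MCM2 to MCM7 ring, which assemble in equal number, were not equally abundant as RNA. Per kilobase of exon, the order MCM7, MCM3, MCM4, MCM6, MCM2, MCM5 was the same in all 5 groups. In CTRL the mean was 149.7 CPM per kb for MCM7 and 16.5 CPM per kb for MCM5, a span of 9.06-fold, and in the other groups the span was 7.38- to 9.00-fold. MCM6 itself stood at 228 and 228 CPM in MN1-BEND2 cells, 284 and 284 CPM in CTRL and 278 and 281 CPM in MN1-CXXC5 cells, and the MN1-BEND2 pair lay below all the other 8 libraries. MCM7 shares 8.94% of its exon bases with AP4M1 on the opposite strand, whose count was 1.18% of that of MCM7.

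**Figure D2:**
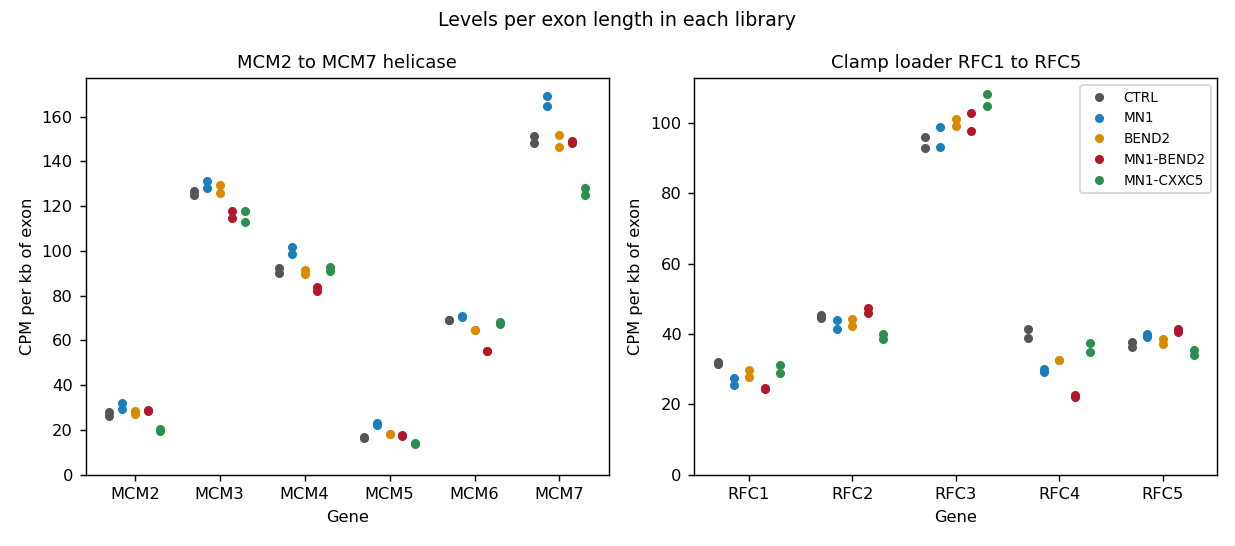
Level in CPM per kilobase of exon of the MCM2 to MCM7 helicase genes (left) and of the clamp-loader genes RFC1 to RFC5 (right), each point 1 library, coloured by group. MCM7 is highest and MCM5 lowest among the helicase genes in each group, and RFC4 lies below RFC1 in MN1-BEND2 cells and above it in the other groups.

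CDC45 and the GINS tetramer complete the active helicase. In MN1 cells CDC45 rose by 0.35, GINS4 by 0.25 and GINS2 by 0.13, and none of the 5 fell. In MN1-BEND2 cells GINS4 rose by 0.19 while GINS1 fell by 0.23 and GINS2 by 0.12, and in MN1-CXXC5 cells GINS4 rose by 0.15 while GINS2 fell by 0.25. The GINS2 calls in MN1 and MN1-BEND2 cells were lost with DESeq2 and without either CTRL library. In BEND2 cells GINS4 alone was called (log2 fold change 0.19). The GINS4 call in MN1 cells held in each alternative fit, whereas those in the other 3 lines were lost with DESeq2, and those in BEND2 and MN1-CXXC5 cells also without either CTRL library.

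GINS3 (ENSG00000181938, chr16:58295080-58406144, plus strand) was the member with the smallest change between group means: no comparison with CTRL called it, although its CTRL libraries differed from each other more than those of any other member. It stood at 41.4 and 35.4 CPM in CTRL, 38.3 and 36.6 CPM in MN1, 36.8 and 41.2 CPM in BEND2, 40.8 and 40.2 CPM in MN1-BEND2 and 38.7 and 37.2 CPM in MN1-CXXC5 cells, and the CTRL pair spanned all the values of the other groups. Its log2 fold changes against CTRL ran from -0.03 to 0.08, and the 95% interval was -0.07 to 0.24 in MN1-BEND2 cells and -0.17 to 0.15 in MN1-CXXC5 cells. In the alternative fits its value in MN1-BEND2 cells ran from -0.03 to 0.19, with adjusted p from 0.0434 to 0.735.

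The clamp and its loader split by subunit. PCNA, the ring that tethers polymerases to DNA, was the most abundant member per kilobase in each group (252 to 299 CPM per kb), and it was called in MN1-CXXC5 cells, where it rose by 0.17 on the log2 scale (adjusted p = 0.000576). Its values of -0.07, -0.01 and 0.03 in MN1-BEND2, BEND2 and MN1 cells were not called. RFC1, the large loader subunit, fell by 0.37 in MN1-BEND2 and by 0.26 in MN1 cells. RFC3 rose by 0.17 and RFC2 fell by 0.19 in MN1-CXXC5 cells, and RFC5 rose by 0.15 in MN1-BEND2 cells. The RFC2 call was lost with GC and length offsets (-0.03), and the RFC5 call with DESeq2 and without CTRL replicate 2. RFC5 shares 5.72% of its exon bases with WSB2 on the opposite strand, which also rose in MN1-BEND2 cells (log2 fold change 0.13, adjusted p = 0.0243), and the part of this overlap was not tested.

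RFC4 (ENSG00000163918, chr3:186789880-186807058, minus strand), a small subunit of the loader, was lower in all 4 construct lines. The libraries read 125 and 117 CPM in CTRL, 87.7 and 90.1 CPM in MN1, 98.1 and 97.7 CPM in BEND2, 67.8 and 65.8 CPM in MN1-BEND2 and 112 and 105 CPM in MN1-CXXC5 cells. The 2 MN1-BEND2 libraries were the lowest and the 2 CTRL libraries the highest of all 10. In MN1-BEND2 cells the difference was -0.85 on the log2 scale (SE 0.044, adjusted p = 1.73e-08). It fell by 0.44 in MN1 cells (adjusted p = 8.59e-06), by 0.30 in BEND2 cells (adjusted p = 0.00129) and by 0.15 in MN1-CXXC5 cells (adjusted p = 0.0131), where the call was lost without CTRL replicate 1, without MN1-CXXC5 replicate 2, with DESeq2 and in a fit of only these 2 groups. Relative to RFC2, per kilobase, RFC4 stood at 0.93 and 0.86 in CTRL and at 0.48 in both MN1-BEND2 libraries. RFC4 shares 21 exon bases (0.7%) with EIF4A2 on the opposite strand, which also fell in MN1-BEND2 cells (log2 fold change -0.35, adjusted p = 8.25e-07).

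Among the 7 polymerase and primase genes, 4 fell and 2 rose in MN1-BEND2 cells. POLA1, PRIM1 and PRIM2, which form the polymerase alpha-primase complex with POLA2, fell there by 0.64, 0.35 and 0.27, and POLE2, the second subunit of polymerase epsilon, by 0.32. POLA2, the accessory subunit, rose by 0.25 and POLD1 by 0.19. POLA1, PRIM1 and PRIM2 also fell in MN1 cells by 0.18, 0.31 and 0.15, where POLE, the leading-strand polymerase, rose by 0.19. The PRIM2 call in MN1 cells was lost with DESeq2, with GC and length offsets (-0.10) and without MN1 replicate 1. PRIM1, the catalytic primase subunit, was lower too in BEND2 (-0.20) and MN1-CXXC5 cells (-0.14); both calls were lost with DESeq2 and without CTRL replicate 2. POLE rose by 0.16 in MN1-CXXC5 cells and POLD1 by 0.16 in BEND2 cells, and POLA2 fell by 0.41 in MN1-CXXC5 cells, a call lost with DESeq2. The POLA2 call in MN1-BEND2 cells was lost in 8 alternatives, among them the omission of any 1 of the 4 libraries compared, and POLA2 had the lowest level per kilobase of the 38 (mean 1.82 CPM per kb in CTRL).

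POLA1 (ENSG00000101868, chrX:24693919-24996986, plus strand), the catalytic subunit of polymerase alpha, was distinct in MN1-BEND2 cells. The libraries read 184 and 188 CPM in CTRL, 162 and 165 CPM in MN1, 168 and 176 CPM in BEND2, 119 and 119 CPM in MN1-BEND2 and 177 and 186 CPM in MN1-CXXC5 cells. Only the MN1-BEND2 pair lay clear below all the other 8 libraries, and the MN1-CXXC5 pair overlapped CTRL. The difference from CTRL was -0.64 on the log2 scale (SE 0.036, adjusted p = 3.24e-08) in MN1-BEND2 cells, and it was -0.60 with GC and length offsets. POLA1 exceeded its partner POLA2 per kilobase by 15.9- to 16.3-fold in CTRL, by 8.52- to 8.74-fold in MN1-BEND2 cells and by 20.3- to 21.5-fold in MN1-CXXC5 cells.

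POLD1 (ENSG00000062822, chr19:50384204-50418016, plus strand), the catalytic subunit of the lagging-strand polymerase delta, was lowest in MN1-CXXC5 cells. It stood at 57.9 and 55.9 CPM in CTRL, 56.7 and 57.7 CPM in MN1, 63.6 and 63.5 CPM in BEND2, 67.1 and 62.6 CPM in MN1-BEND2 and 35.6 and 36.1 CPM in MN1-CXXC5 cells. The MN1-CXXC5 pair lay below all the other 8 libraries. The difference from CTRL was -0.67 on the log2 scale (SE 0.047, adjusted p = 5.57e-07), and -0.16 with GC and length offsets (adjusted p = 0.0183). The same offsets turned the sign of POLD1 from 0.19 to -0.17 in MN1-BEND2 cells, where the call was also lost with DESeq2, and from 0.16 to -0.01 in BEND2 cells, where it was also lost with DESeq2 and without any 1 of the 4 libraries compared. POLD1 lies at the 96.8th percentile of GC content.

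Nucleotide supply held the largest rise of the 38 genes. RRM2 (ENSG00000171848, chr2:10120698-10131419, plus strand) encodes the small, S-phase subunit of ribonucleotide reductase, the enzyme that makes deoxyribonucleotides. Its levels were 123 and 128 CPM in CTRL, 156 and 152 CPM in MN1, 149 and 150.3 CPM in BEND2, 283 and 292 CPM in MN1-BEND2 and 213 and 203 CPM in MN1-CXXC5 cells. No construct library overlapped CTRL, and the order of the groups was MN1-BEND2, MN1-CXXC5, then MN1 and BEND2, whose values differed by less than 10 CPM, then CTRL. The difference was 1.20 on the log2 scale (SE 0.036, adjusted p = 2.71e-10) in MN1-BEND2 cells and 0.73 on the log2 scale (SE 0.037, adjusted p = 4.67e-08) in MN1-CXXC5 cells. RRM2 rose by 0.29 in MN1 cells (adjusted p = 5.89e-05) and by 0.25 in BEND2 cells (adjusted p = 0.00152), and all 4 calls held in each alternative fit, though a limit of 0.5 on the log2 fold change leaves only the fusion lines. Its window of 300 bases at the start held 3 CCAAT boxes and none of the E2F-type words.

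RRM1, the large subunit of the same enzyme, moved little and not in parallel. It fell by 0.12 in MN1-BEND2 cells, from 319 and 319 CPM in CTRL to 296 and 292 CPM, rose by 0.14 in MN1 cells, and was not called in BEND2 (-0.06) or MN1-CXXC5 cells (0.03). Per kilobase, the ratio of RRM2 to RRM1 was 0.30 and 0.31 in CTRL, 0.35 and 0.34 in MN1, 0.38 and 0.39 in BEND2, 0.75 and 0.79 in MN1-BEND2 and 0.52 and 0.48 in MN1-CXXC5 cells. RRM2 shares 20.23% of its exon bases with AC007240.1 on the same strand, whose count was 0.888% of that of RRM2, and processed copies of RRM2 held at most 0.054%.

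TYMS (ENSG00000176890, chr18:657604-673578, plus strand), thymidylate synthase, which makes the thymine nucleotide, went the other way from RRM2 in MN1-BEND2 cells. It stood at 57.5 and 60.3 CPM in CTRL, 60.1 and 61.2 CPM in MN1, 54.6 and 53.2 CPM in BEND2, 38.8 and 40.3 CPM in MN1-BEND2 and 62.7 and 71.2 CPM in MN1-CXXC5 cells. The MN1-BEND2 pair was the lowest of all 10 libraries, and the MN1-CXXC5 pair the highest but the widest apart. The difference from CTRL was -0.57 on the log2 scale (SE 0.057, adjusted p = 4.13e-06) in MN1-BEND2 cells. In MN1-CXXC5 cells TYMS rose by 0.18 (adjusted p = 0.0167), a call lost with DESeq2, without CTRL replicate 1 and without MN1-CXXC5 replicate 2. TYMS shares 39.15% of its exon bases with ENOSF1 on the opposite strand, and ENOSF1 fell too in MN1-BEND2 cells (log2 fold change -0.82, adjusted p = 3.45e-07), as did the divergent transcript TYMSOS (-1.69, adjusted p = 1.43e-05). Reads of the 3 cannot be told apart where they overlap, since the strand setting of the counting is not given in the sources used here.

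**Figure D3:**
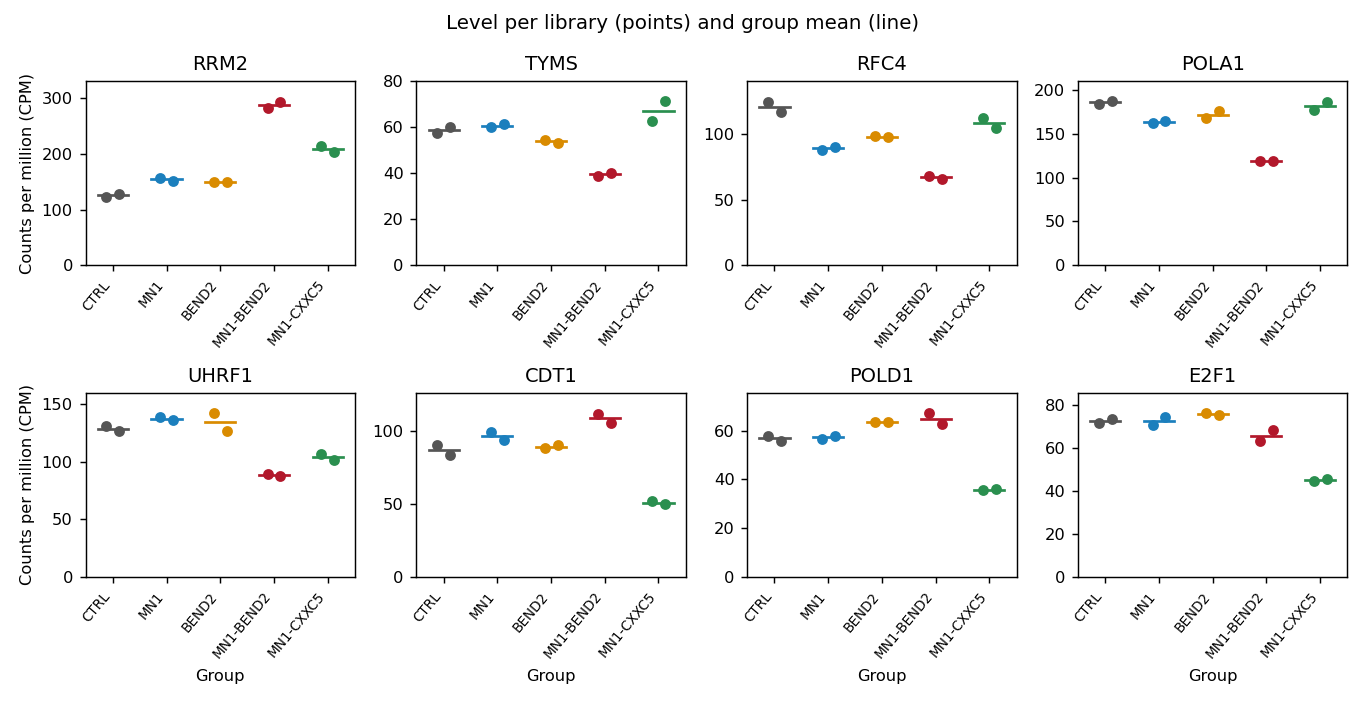
Level in CPM of 8 genes with an absolute log2 fold change of at least 0.5 against CTRL in a fusion line, each point 1 library and each line the mean of a group. RRM2 is highest in MN1-BEND2 cells, where TYMS, RFC4, POLA1 and UHRF1 are lowest, and CDT1, POLD1 and E2F1 are lowest in MN1-CXXC5 cells.

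The lagging-strand and methylation-maintenance genes separated UHRF1 from DNMT1. UHRF1 (ENSG00000276043, chr19:4903080-4962154, plus strand) binds hemimethylated DNA and recruits the maintenance methyltransferase DNMT1 behind the fork. UHRF1 stood at 131 and 126 CPM in CTRL, 139 and 136 CPM in MN1, 143 and 127 CPM in BEND2, 89.4 and 87.6 CPM in MN1-BEND2 and 106 and 101 CPM in MN1-CXXC5 cells. Both fusion lines lay below all the other 6 libraries, without overlap between them, and the MN1 and BEND2 lines were not called. The difference from CTRL was -0.54 on the log2 scale (SE 0.051, adjusted p = 2.79e-06) in MN1-BEND2 cells and -0.31 on the log2 scale (SE 0.052, adjusted p = 0.000406) in MN1-CXXC5 cells, where it was -0.19 with GC and length offsets.

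DNMT1 was higher in MN1-CXXC5 cells (408 and 439 CPM) and MN1 cells (389.6 and 402 CPM) than in CTRL (326 and 337 CPM), with log2 fold changes of 0.35 and 0.25. In MN1-BEND2 cells its value was 0.10 (adjusted p = 0.0633). FEN1, the flap endonuclease that trims Okazaki fragments, rose by 0.37 in MN1, by 0.18 in BEND2 and by 0.15 in MN1-BEND2 cells. The last 2 calls were lost with DESeq2 and without CTRL replicate 1, and that in MN1-BEND2 cells also with GC and length offsets (0.03). LIG1, which seals the fragments, fell by 0.22 in MN1-BEND2 cells (adjusted p = 0.0359), a call lost without CTRL replicate 2 and without MN1-BEND2 replicate 1, and was not called elsewhere. FEN1 shares 6.7% of its exon bases with TMEM258 on the opposite strand, which also rose in MN1 cells (log2 fold change 0.35, adjusted p = 0.00136), and the part of this overlap was not tested.

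Of the 4 regulators, cyclin E and E2F1 went in opposite directions in MN1-CXXC5 cells. E2F1 (ENSG00000101412, chr20:33675683-33686404, minus strand), a transcription factor that drives S-phase genes, stood at 71.7 and 73.1 CPM in CTRL, 70.4 and 74.2 CPM in MN1, 76.1 and 75.1 CPM in BEND2, 63.1 and 68.0 CPM in MN1-BEND2 and 44.3 and 45.2 CPM in MN1-CXXC5 cells. The MN1-CXXC5 pair lay clear below the other 8 libraries, and the MN1-BEND2 pair just below the rest. The difference from CTRL was -0.69 on the log2 scale (SE 0.047, adjusted p = 4.37e-07) in MN1-CXXC5 cells, and -0.23 with GC and length offsets (adjusted p = 0.00307). In MN1-BEND2 cells E2F1 fell by 0.14 (adjusted p = 0.0173), a call lost with DESeq2, without CTRL replicate 2 and without MN1-BEND2 replicate 1, and with the offsets its value was -0.43. E2F1 lies at the 92.8th percentile of GC content.

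CCNE1 and CCNE2 encode the E-type cyclins, which activate CDK2 at the entry into S phase, and both rose by 0.44 in MN1-CXXC5 cells. CCNE1 stood at 39.9 and 43.2 CPM in CTRL and 57.1 and 55.9 CPM in MN1-CXXC5 cells, and it also rose by 0.29 in both MN1 and BEND2 cells, the latter call lost without BEND2 replicate 1. CCNE2 rose by 0.18 in MN1-BEND2 cells (adjusted p = 0.03), a call lost with DESeq2 and without any 1 of the 4 libraries compared. CCNE2 shares 37.05% of its exon bases with INTS8 on the opposite strand, which was not called in any line. SLBP, which binds the stem-loop of replication-dependent histone messages, rose by 0.21 in MN1-CXXC5 and 0.19 in MN1 cells and fell by 0.16 in MN1-BEND2 cells.

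Comparisons between the construct lines asked how MN1-BEND2 differed from MN1 and from BEND2, MN1-CXXC5 from MN1, and the fusions from each other. Against MN1, MN1-BEND2 cells had 5 members higher and 24 lower, while 46.3% of all genes were called, 23.2% in each direction. The median of the members was -0.16. RRM2 was higher by 0.90, and UHRF1 (-0.64) and TYMS (-0.62) were lower by more than 0.5, where 11.2% of all genes rose and 6.92% fell by that much. The lower members included all 4 lagging-strand and methylation genes and 6 of the 9 licensing and helicase genes, such as MCM5 (-0.36), MCM6 (-0.35) and MCM4 (-0.28). The groups did not overlap for 37 members (71.5% of all genes). Without MN1 replicate 1 the counts were 5 and 22, and without MN1-BEND2 replicate 1 or MN1 replicate 2 they were 3 and 19 and 3 and 22. With DESeq2 they were 2 and 19, beside 2465 higher and 2878 lower over all genes.

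Against BEND2, MN1-BEND2 cells had 4 members higher and 15 lower (all genes 43.6%, 21.7% higher and 21.9% lower), with a median of -0.06. RRM2 was higher by 0.94, and UHRF1, RFC4 and POLA1 were lower (-0.62, -0.55 and -0.53), where 9.06% of all genes rose and 6.13% fell by at least 0.5. The groups did not overlap for 30 members (70.8% of all genes). With GC and length offsets 2 were higher and 21 lower, and without either MN1-BEND2 library or BEND2 replicate 1 the counts were 2 and 14. With DESeq2 they were 2 and 13, and without the filter on low counts 2 and 16. Over all genes the counts were 3201 and 4174 with the offsets and 2315 and 2517 with DESeq2. Without the filter they were 3737 and 4292 of 38343 genes.

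Against MN1, MN1-CXXC5 cells had 11 members higher and 16 lower (all genes 48.8%, 23.3% higher and 25.5% lower), with a median of -0.04. No member was higher by 0.5, and 6 were lower: CDT1 (-0.92), MCM5 and E2F1 (-0.69 each), POLD1 (-0.68), MCM2 (-0.62) and POLA2 (-0.54), beside 6.66% and 13.9% of all genes. The groups did not overlap for 32 members (73.4% of all genes). With GC and length offsets the split was 8 higher and 16 lower, and over all genes 3483 higher and 3923 lower. CDT1 then stood at -0.28, MCM5 at -0.47, E2F1 at -0.15, MCM2 at -0.31 and POLA2 at -0.40. POLD1 stood at -0.06 with these offsets (adjusted p = 0.383), and its call was lost. Without MN1 replicate 1 the counts were 10 and 13, and without MN1-CXXC5 replicate 2 they were 7 and 15.

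The fusions differed from each other in 32 of the 38 genes. In MN1-BEND2 cells 12 were higher and 20 lower than in MN1-CXXC5 cells, while 58.6% of all genes were called (31.1% higher, 27.5% lower), and the groups did not overlap for 35 members (78.3% of all genes). CDT1 (1.09), POLD1 (0.85), POLA2 (0.67), E2F1 (0.55) and MCM2 (0.52) were higher by at least 0.5, and TYMS (-0.76), RFC4 (-0.70) and POLA1 (-0.61) lower, beside 19.8% and 9.20% of all genes. RRM2 was higher by 0.47 (adjusted p = 3.37e-07). With GC and length offsets the split was 5 higher and 20 lower. Over all genes the offsets moved it from 5645 higher and 4979 lower to 3791 and 4648. POLD1 then stood at -0.01, MCM2 at 0.05, CDT1 at 0.21 and E2F1 at -0.20, whereas TYMS stood at -0.88, RFC4 at -0.68, POLA1 at -0.48 and RRM2 at 0.51.

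GC content moved with these fold changes, so its values are given beside them. All 18127 genes were split by GC content into 5 bins of equal size. The median log2 fold change in MN1-BEND2 cells was -0.21 in the bin of lowest GC content and 0.27 in that of the highest, while for MN1-CXXC5 cells these medians were 0.07 and -0.40. Across the 38 genes Pearson's r of GC content with the log2 fold change was 0.22 in MN1-BEND2, -0.57 in MN1-CXXC5, 0.45 in MN1 and 0.38 in BEND2 cells, against 0.23, -0.33, 0.10 and 0.17 across all genes. For MN1-CXXC5 against MN1 it was -0.80 across the 38 and -0.37 across all genes. These are descriptions across genes, which share libraries and are not independent. RRM2, RFC4, POLA1 and TYMS, at percentiles 41.8, 40.2, 29.5 and 56.3 of GC content, changed by 1.19, -0.84, -0.60 and -0.63 in MN1-BEND2 cells with the offsets. Of the other calls in MN1-BEND2 cells, those of CDT1 (-0.02), FEN1 (0.03) and POLA2 (0.10) were lost with the offsets, and POLD1 turned sign (-0.17). The calls of GINS1 (-0.13), PRIM1 (-0.23) and RRM1 (-0.07) shrank by over 1.5 times with the offsets. Those of E2F1 (-0.43), LIG1 (-0.41), CCNE2 (0.35) and MCM3 (-0.21) grew by as much.

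Other genes of the replication pathway were read from lists, and counts are given as higher and lower against CTRL, beside the shares of all genes given above. Of 19 further origin licensing and firing genes, 4 rose and 13 fell in MN1-BEND2 cells (median -0.19, against 0.01 over all genes), 9 and 4 in MN1-CXXC5, 5 and 8 in MN1, and 1 and 4 in BEND2 cells. CDC7, the kinase that fires origins, fell in all 4 lines, by 0.79 in MN1-BEND2 and by 0.24, 0.42 and 0.30 in MN1-CXXC5, MN1 and BEND2 cells. DBF4B, an activating subunit of that kinase, rose by 1.09 in MN1-BEND2 cells, from 33.7 and 35.5 to 73.5 and 74.3 CPM. ORC4, of the origin recognition complex, fell in all 4 lines (-0.53, -0.22, -0.38 and -0.23 in the same order, or -0.34 in MN1-CXXC5 cells with GC and length offsets), and MCMBP, an MCM-binding protein, fell by 0.39 in MN1-BEND2 cells.

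Among 14 fork-protection and checkpoint-clamp genes, 2 rose and 6 fell in MN1-BEND2, 6 and 5 in MN1-CXXC5, 5 and 3 in MN1, and 2 and 2 in BEND2 cells. RAD1, of the checkpoint clamp, fell by 0.49 in MN1, 0.45 in MN1-BEND2 and 0.23 in BEND2 cells. RPA1, of the single-strand binding protein, rose by 0.35 in both MN1 and MN1-CXXC5 cells. CHTF8, a subunit of an alternative clamp loader, fell by 1.01 in MN1-CXXC5 cells, and its partner CHTF18 fell there by 0.61 but rose by 0.44 in MN1 cells. The CHTF18 call in MN1-CXXC5 cells was lost with GC and length offsets. Of 12 other polymerase and Okazaki-fragment genes, 5 rose and 3 fell in MN1-BEND2, 2 and 4 in MN1-CXXC5, 2 and 3 in MN1, and 0 and 2 in BEND2 cells, with POLD2, a subunit of polymerase delta, at 0.40 in MN1-BEND2 and -0.52 in MN1-CXXC5 cells, or 0.17 and -0.21 with GC and length offsets. POLE4, a small subunit of polymerase epsilon, rose by 0.83 in MN1-BEND2 and 0.66 in MN1 cells. RNASEH2B, of the ribonuclease that removes ribonucleotides from DNA, fell in all 4 lines, by 0.54 in MN1 cells. It fell by 0.32 in MN1-BEND2, 0.25 in MN1-CXXC5 and 0.13 in BEND2 cells. The call in BEND2 cells was lost with DESeq2 and with GC and length offsets. DNA2, a flap nuclease, rose by 0.30 in MN1-CXXC5 cells.

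Of 10 other nucleotide-supply genes, 2 rose and 4 fell in MN1-BEND2, 4 and 2 in MN1-CXXC5, 5 and 1 in MN1, and 1 and 1 in BEND2 cells. RRM2B, the alternative small subunit of ribonucleotide reductase, fell by 0.60 in MN1-BEND2 cells, from 82.3 and 80.9 to 54.3 and 53.2 CPM, where RRM2 rose. TK1, the S-phase thymidine kinase, rose by 0.42 in MN1-BEND2 and 0.50 in MN1 cells and fell by 0.79 in MN1-CXXC5 cells. With GC and length offsets TK1 stood at 0.12 in MN1-BEND2 and -0.31 in MN1-CXXC5 cells. SAMHD1, which breaks down deoxyribonucleotides, rose by 0.40 in MN1 cells. Of 9 chromatin-assembly genes, 3 rose and 3 fell in MN1-BEND2, 5 and 0 in MN1-CXXC5, 5 and 0 in MN1, and 2 and 1 in BEND2 cells. ASF1B, a histone chaperone, rose by 0.50 and HELLS, a chromatin remodeller, fell by 0.34 in MN1-BEND2 cells. USP7, a deubiquitinase, rose by 0.35 in MN1-BEND2 cells, and RBBP4, a histone-binding subunit, rose by 0.24 in MN1-CXXC5 and 0.24 in MN1 cells. With GC and length offsets ASF1B and HELLS stood at 0.29 and -0.18 in MN1-BEND2 cells and RBBP4 at 0.11 in MN1-CXXC5 cells.

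Among 29 G1/S regulators, of which 28 were tested, 10 rose and 11 fell in MN1-BEND2, 8 and 11 in MN1-CXXC5, 10 and 9 in MN1, and 3 and 4 in BEND2 cells. RB1, the repressor of E2F, stood at 199.9 and 187 CPM in CTRL and 97.6 and 96.4 CPM in MN1-BEND2 cells, a difference of -0.99 on the log2 scale (SE 0.041, adjusted p = 2.69e-09). RB1 rose by 0.18 in MN1-CXXC5 cells, a call lost with GC and length offsets. CCND1, cyclin D1, rose in all 4 lines, by 1.08 in MN1-BEND2, 1.02 in MN1-CXXC5, 0.63 in MN1 and 0.43 in BEND2 cells. CCND3, cyclin D3, rose by 0.93 in MN1-BEND2 cells and fell by 0.52 in MN1-CXXC5 cells. E2F7, a repressor of the E2F family, fell by 0.62 in MN1-BEND2 and 0.54 in MN1 cells.

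For the later part of the cycle, 22 G2/M genes were read. In MN1-BEND2 cells 9 rose and 7 fell, in MN1-CXXC5 5 and 6, in MN1 10 and 4, and in BEND2 1 and 3. BUB1, a spindle-checkpoint kinase, rose by 0.64 in MN1-BEND2 cells, and AURKB, the Aurora B kinase, rose by 0.45 there and by 0.44 in MN1 cells. KIF11, a spindle motor, fell by 0.35 in MN1-BEND2 cells, and UBE2C, which acts with the anaphase-promoting complex, fell by 0.68 in MN1-CXXC5 cells. With GC and length offsets AURKB and KIF11 stood at 0.30 and -0.20 in MN1-BEND2 cells.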

How the data were processed

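RNA from 10 TREx293 libraries was sequenced as paired reads of 150 bases. The deposited table holds whole-number counts per gene made by the authors, without normalization. The genome was GRCh38 (hg38) and the tools named are featureCounts 2.0.0, SAMtools 1.0.1 and HISAT2, per the submitters' processing notes, while what annotation, strand setting and options the counting used is not given in the sources used here. Columns were matched to samples by name, and 0 columns of per-sample values were left unmatched. Of 58261 lines, 45 repeated identifiers were summed, leaving 58216 genes, and 27 symbols turned into dates were restored from the GENCODE v29 name of the identifier, which also supplied positions, exon lengths and GC content.

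Tests used R 4.3.3 with edgeR 4.0.16 (filterByExpr, TMM, quasi-likelihood F-test) on all 10 libraries with group as the only term, which left 5 residual degrees of freedom, over 18127 genes, with a common biological coefficient of variation of 0.0404. An SE is that of the log2 fold change, and intervals are at 95%. The test was tried on simulated counts first. Replicate libraries differed by more than sampling noise (chi-square per degree of freedom 2.09 to 3.43). Precision rests on 2 libraries a group, and intervals cover the spread between these libraries only. Alternatives were other scalings, no filter, DESeq2 1.42.0, a replicate term, GC and length offsets (mgcv 1.9.3), a fit of only the 2 groups compared, a fold limit and the omission of each library. Level per kilobase uses merged exons.

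The members and lists were chosen with earlier results of these data known. Values in every library are printed for members with an absolute log2 fold change of at least 0.5 and an adjusted p under 0.05 against CTRL and for the member with the smallest change, and up to 4 genes with the smallest adjusted p are named per further list, of which 1 is not reported here. Single values of other members illustrate a comparison and were chosen after their values were seen. A list gene named for 1 line could be called in other lines too, such as RRM2B in MN1 cells (-0.35).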

Additional observations from a re-analysis of the deposited data

How the results depend on the processing

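Of the 152 tests of a member against CTRL, the side of the threshold and the direction were unchanged in 148 with the size factors of DESeq2, 145 with library totals, 144 without the filter, 143 in fits of only the 2 groups compared, 129 with DESeq2 and 121 with GC content and length offsets; DESeq2 lost 23 calls and gained 0. With the offsets the direction turned in 5 of the 152 member tests, counting tests called with or without them. These were MCM2 (-0.13), MCM5 (-0.11), CDT1 (-0.019) and POLD1 (-0.17) in MN1-BEND2 cells and POLD1 (-0.012) in BEND2 cells. MCM2 and MCM5 had not been called in the main fit. In the further lists it turned for CHTF18 (-0.13) and DNA2 (0.12) in MN1-BEND2 and DBF4B (0.19) and ASF1B (0.26) in MN1-CXXC5 cells. Of these list genes, only CHTF18 had been called in the main fit. The offsets remove by construction the trend of fold change with GC content, also where it is part of the response. The cause was not tested. Counts of members higher that moved by over 1.5 times were 5 with the offsets in MN1-BEND2 against CTRL, 2 in MN1-BEND2 against BEND2 and 5 in MN1-BEND2 against MN1-CXXC5. With DESeq2 the counts higher were 2 in MN1-BEND2 against CTRL, 2 (with 1 lower) in BEND2 against CTRL, 2 in MN1-BEND2 against MN1 and 2 in MN1-BEND2 against BEND2. Without the filter 2 were higher in MN1-BEND2 against BEND2.

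With a limit of 0.5 on the log2 fold change, higher and lower counts were 1 and 4 (MN1-BEND2), 1 and 3 (MN1-CXXC5), 0 and 0 (MN1) and 0 and 0 (BEND2) against CTRL, 1 and 2 for MN1-BEND2 against MN1, 1 and 3 against BEND2, 0 and 6 for MN1-CXXC5 against MN1, and 5 and 3 for MN1-BEND2 against MN1-CXXC5. With 1 library left out, the counts were 2 to 3 higher and 1 to 2 lower for BEND2 against CTRL, 3 to 5 higher for MN1-BEND2 against MN1, 2 to 3 higher for MN1-BEND2 against BEND2 and 7 to 10 higher for MN1-CXXC5 against MN1. In such fits the lone library of a group is assumed to vary like the others.

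Deviations of same-numbered libraries correlated at 0.0659 to 0.290, and 9 of 10 group pairs exceeded 0.1. The highest value was that of CTRL and MN1, whose replicate 1 libraries held the salivary and squamous markers. The labels do not say that a replicate number marks a shared batch, so the main fit had no replicate block. Whether the numbers mark one was not tested. Adding the block gave a call to 21 of the 152 tests against CTRL and took 0 away. Members higher and lower with the block were 13 and 18 in MN1-BEND2 and 15 and 15 in MN1-CXXC5 cells against CTRL. They were 19 and 6 in MN1 and 9 and 6 in BEND2 cells against CTRL. The counts were 5 and 26 for MN1-BEND2 against MN1 and 4 and 20 against BEND2. They were 13 and 17 for MN1-CXXC5 against MN1 and 12 and 22 between the fusions. The block raised the calls over all genes too, in each of these comparisons. For BEND2 against CTRL the all-gene counts went from 1217 higher and 1352 lower to 1976 and 2183. For MN1-BEND2 against CTRL they went from 4841 and 4575 to 5263 and 4999. With 2 libraries a group, log2 differences near 0.1 were called in some genes and not in others (POLA2 had 133 counts in its smallest library), and a value that was not called does not show that groups were alike.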
